A study of Mus musculus with 13 samples.

Results

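The TRAF family (TNF receptor-associated factors) was followed as the 7 genes Traf1 to Traf7, taken by name from the 49585 genes into which the transcript estimates were summed. All 7 passed the filter on low values in each comparison, with between 96 and 1811 estimated reads per gene and library. The study irradiated ovaries of female CD-1 mice at postnatal day 5 after overnight culture, with caesium-137 as the source, and sequenced the RNA of the oocytes isolated from them. After 0.5 Gy there were 2 libraries each at 0, 1 and 4 h and 1 library each at 2.5 and 6 h, numbered in the labels as first and second generation. After 0.2 Gy there was 1 library at each of these 5 times, all labelled as the third generation, so dose and generation cannot be told apart in these data. After 0.5 Gy the single libraries of 2.5 and 6 h are both labelled second generation. The generations are therefore not balanced between 0 and 1 h and the later times. Each library was made from 4 pooled ovaries, and the 0 h libraries stand for ovaries taken before irradiation. The labels do not say that replicates came from separate litters, so each p-value measures the spread between these libraries, which may be technical.

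TRAF proteins are adaptors at the inner side of TNF-family and Toll-like receptors. They bind the receptor tail through a C-terminal TRAF domain and pass the signal on, mostly through ubiquitin ligase activity of an N-terminal RING finger, to NF-kappaB and JNK. TRAF2 and TRAF5 serve TNF-family receptors, TRAF1 lacks the RING finger and pairs with TRAF2, and TRAF6 serves Toll-like and interleukin receptors. TRAF3 holds the kinase NIK (gene Map3k14) at a low level and so restrains the noncanonical NF-kappaB route, and it also acts in type I interferon induction. TRAF4 has its best known roles in epithelia and in development, and TRAF7 carries WD40 repeats in place of the TRAF domain.

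The bases just upstream of Traf3 and Traf4 are shown because these 2 genes had the largest changes of the family (RefSeq, build GRCm38.p6, 5′ to 3′ on the gene's strand, capitals marking the NF-kappaB site found by a search of both strands).
Traf3, chr12:111166120-111166369, plus strand: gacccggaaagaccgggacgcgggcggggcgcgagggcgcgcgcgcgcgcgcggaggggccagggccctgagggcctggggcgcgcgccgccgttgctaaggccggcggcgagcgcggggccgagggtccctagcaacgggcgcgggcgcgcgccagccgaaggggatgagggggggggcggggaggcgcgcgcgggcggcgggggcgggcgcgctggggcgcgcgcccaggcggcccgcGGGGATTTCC
Traf4, chr11:78165590-78165800, minus strand: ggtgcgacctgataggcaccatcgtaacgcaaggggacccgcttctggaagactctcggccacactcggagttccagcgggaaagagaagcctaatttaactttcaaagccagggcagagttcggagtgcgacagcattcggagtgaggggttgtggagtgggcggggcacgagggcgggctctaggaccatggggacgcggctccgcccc
The Traf3 window had a GC content of 85.2% with 49 CpG dinucleotides, and the Traf4 window had 62.1% with 16. The canonical NF-kappaB site was found 10 bases before the annotated start of Traf3 and in the promoter of no other family member, where 4.51% of 32851 RefSeq promoters of 300 bases held it. The p53-family half-site was in 8.36% of those promoters and in 0 of the 7 TRAF promoters. A match is a stretch of letters and not evidence of binding, and its absence from a window of this size says nothing about the factor.

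All 7 genes were expressed in each of the 13 libraries. On the length-corrected scale (TPM as deposited, summed per gene), the median level over the 13 libraries was 16.7 TPM for Traf7, 3.13 for Traf2, 3.06 for Traf1, 2.80 for Traf5, 1.72 for Traf4, 1.59 for Traf6 and 1.26 for Traf3. Traf7 lay above Traf2 in 13 of 13 libraries. Below Traf7 the neighbours in this order did not separate beyond their spread: Traf2 lay above Traf1 in 7 libraries, Traf1 above Traf5 in 6, Traf5 above Traf4 in 10, Traf4 above Traf6 in 8 and Traf6 above Traf3 in 8. In the 3 libraries of 0 h, the median level was 15.8 TPM for Traf7 and 0.631 TPM for Traf3. With protein-coding transcripts alone the median TPM of Traf7 was 5.97, still the highest, and that of Traf3 was 0.945, still the lowest. Bulk libraries cannot tell fewer cells of a type from less RNA per cell.

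Markers of oocytes were present, with all 15 detected in each library and a summed level between 5671 and 8416 CPM (CPM, reads scaled to a common library total). RNA of other cells was present too. The 9 granulosa markers summed to 1482 to 2403 CPM, the 8 stromal markers to 2003 to 3891 CPM and the 6 erythroid markers to 858 to 6289 CPM. The erythroid sum was highest at 4 h, with 6009 and 6289 CPM after 0.5 Gy and 4181 CPM after 0.2 Gy, where the libraries of 0 and 1 h held 2158 to 3527 CPM and those of 2.5 and 6 h held 858 to 2968 CPM. The 8 granulocyte markers summed to 459.5 CPM in replicate 2 of 0 h after 0.5 Gy and to between 5.94 and 16.7 CPM in the other 12 libraries. In the comparison of late (2.5, 4 and 6 h) with early (0 and 1 h) libraries after 0.5 Gy, leaving that library out gave log2 fold changes of 1.18 for Traf3 and 1.48 for Traf4. The part of the other cells in the values of the TRAF genes was not tested.

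**Figure D1:**
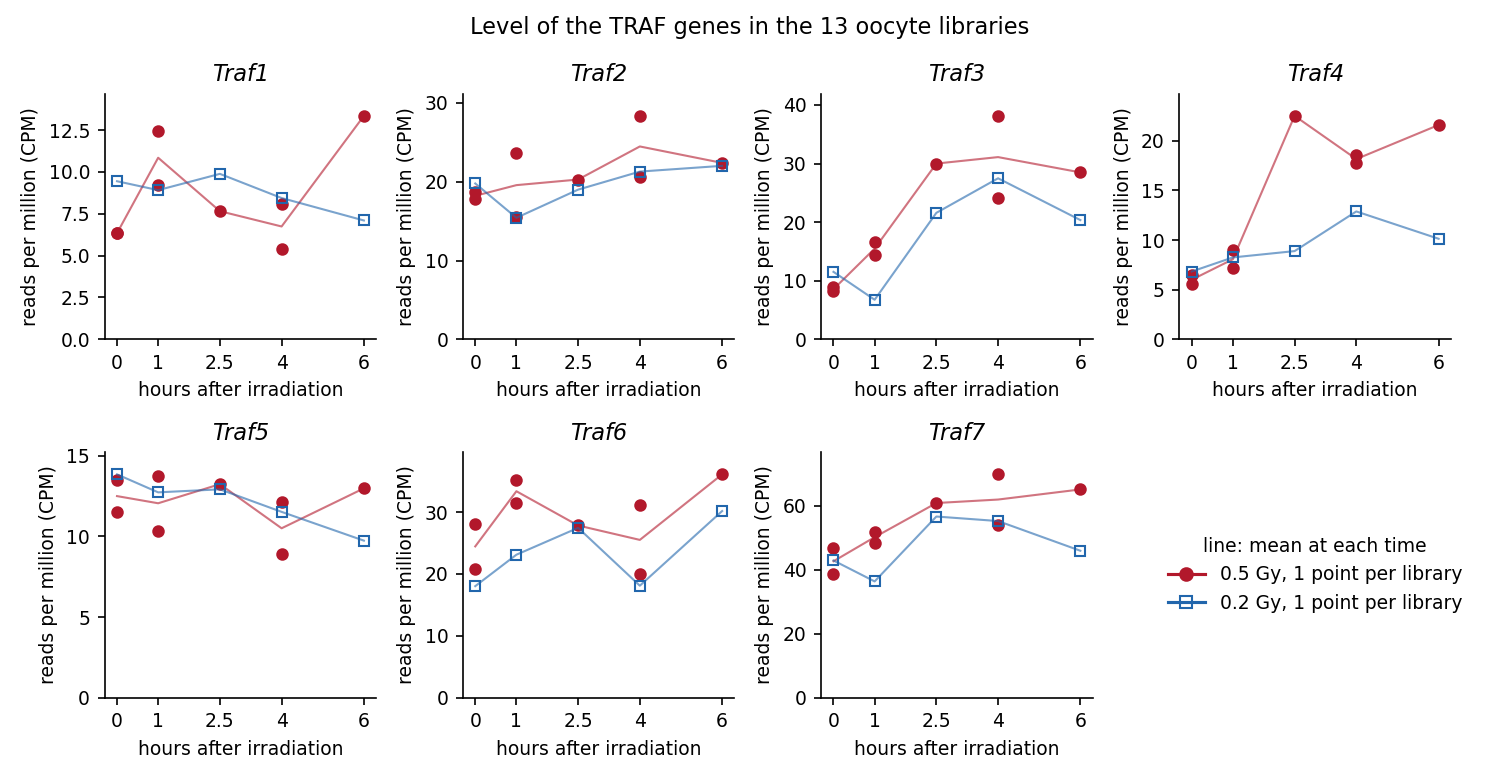
Level of each TRAF gene (y axis, CPM, each panel on its own scale from 0) against hours after irradiation (x axis), with 1 point per library, filled circles for 0.5 Gy, open squares for 0.2 Gy and lines through the mean at each time. Traf3 and Traf4 are under 10 CPM at 0 h of 0.5 Gy and between 17.8 and 38.1 CPM from 2.5 h on, and after 0.2 Gy Traf4 is at no more than 12.9 CPM.

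Traf4 and Traf3 were the members with the largest differences between early and late libraries after 0.5 Gy. Traf4, the member best known from epithelia and development, measured 5.53 and 6.48 CPM at 0 h, 7.17 and 8.97 CPM at 1 h, 22.5 CPM at 2.5 h, 18.6 and 17.8 CPM at 4 h and 21.6 CPM at 6 h. Each of the 4 libraries from 2.5 h on lay above each of the 4 libraries of 0 and 1 h. Traf3, the restraint on NIK, measured 8.93 and 8.19 CPM at 0 h, 14.3 and 16.6 CPM at 1 h, 29.99 CPM at 2.5 h, 24.1 and 38.1 CPM at 4 h and 28.5 CPM at 6 h. Here too the late libraries lay above the early ones without overlap, with the 1 h libraries between the 0 h and the late ones. Traf7, the member with WD40 repeats, measured 46.8 and 38.7 CPM at 0 h, 48.6 and 51.9 CPM at 1 h, 60.9 CPM at 2.5 h, 54.1 and 69.9 CPM at 4 h and 65.2 CPM at 6 h. Its late libraries also lay above the early ones, by a small margin. Over all 22588 genes tested, 3.18% had the 4 late libraries all above the 4 early ones.

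In the comparison of 2.5, 4 and 6 h with 0 and 1 h after 0.5 Gy (4 libraries against 4), Traf4 rose 2.82-fold and was the 1 member of 7 that was called. Its level averaged 20.1 ± 2.30 CPM (SD, n = 4) late and 7.04 ± 1.45 CPM (SD, n = 4) early, with a log2 fold change of 1.497 ± 0.23 (SE) and an adjusted p of 0.0327 in edgeR's quasi-likelihood test. Calls needed both a Benjamini-Hochberg adjusted p below 0.05 over all genes tested and a change of more than 1 on the log2 scale, and 0.128% of the 22588 genes tested were called. Traf3 averaged 30.2 ± 5.88 CPM (SD, n = 4) late and 12.0 ± 4.11 CPM (SD, n = 4) early, a log2 fold change of 1.31 ± 0.25 (SE) that missed the threshold (edgeR adjusted p = 0.0982). Traf7 had a log2 fold change of 0.41 ± 0.15 (SE) and was not called (edgeR adjusted p = 0.456). The remaining 4 members had log2 fold changes between -0.07 (Traf5) and 0.26 (Traf2), with edgeR adjusted p from 0.731 to 0.996, and their early and late libraries overlapped. The call of Traf4 was close to the threshold: it was kept without the second replicate of 1 h (edgeR adjusted p = 0.0474) and lost on leaving out any 1 of the other 7 libraries (edgeR adjusted p from 0.0536 without replicate 1 of 4 h to 0.149 without the library of 6 h), while its log2 fold change stayed between 1.40 and 1.64. The call was also lost with protein-coding transcripts only (edgeR adjusted p = 0.0835). DESeq2, with or without its prior on fold changes, called both Traf4 and Traf3, with an adjusted p of 0.000221 for Traf3 with the prior and 0.000234 without it. Each side pools libraries of different times, so the spread includes change over time.

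Traf1, Traf2, Traf5 and Traf6 showed no such step. Traf1 ranged from 6.34 to 12.5 CPM (median 7.79) early and from 5.404 to 13.4 CPM (median 7.87) late. Traf2 ranged from 15.6 to 23.6 CPM (median 18.2) early and from 20.3 to 28.4 CPM (median 21.5) late. Traf5 ranged from 10.3 to 13.8 CPM (median 12.5) early and from 8.88 to 13.2 CPM (median 12.6) late. For these 3 genes and for Traf6, at 20.8 to 35.2 CPM (median 29.8) early and 19.9 to 36.1 CPM (median 29.5) late, the early and late ranges overlapped.

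Measured against 0 h alone, none of the 7 genes was called at 1, 2.5, 4 or 6 h after 0.5 Gy by edgeR, and neither was any other gene (0% of 28468 at each time). At an unadjusted edgeR p under 0.05, 1133 genes passed at 1 h (3.98%) and 1658 at 4 h (5.82%). These shares are near the 0.05 that this threshold lets pass when nothing changes. In the comparison of late with early libraries after 0.5 Gy, 9.06% of 22588 genes passed it. DESeq2 without a prior on fold changes called 35 genes at 1 h and 135 at 4 h. The log2 fold changes of Traf3 at these 4 times, in order, were 0.84 ± 0.34, 1.80 ± 0.40, 1.85 ± 0.35 and 1.75 ± 0.40 (SE). Those of Traf4 were 0.41 ± 0.36, 1.90 ± 0.42, 1.59 ± 0.36 and 1.86 ± 0.42 (SE). From 2.5 h on, the values of either gene differed by less than their standard errors, so no order among these 3 times can be read. DESeq2 called both genes at 2.5, 4 and 6 h, with or without the prior. At 2.5 and 6 h there was 1 library each, assumed to vary like the duplicates of 0, 1 and 4 h, so these calls and errors have no replicate check of their own. These comparisons share the 0 h libraries and are not independent of one another.

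After 0.2 Gy, Traf3 measured 11.5 CPM at 0 h, 6.75 CPM at 1 h, 21.6 CPM at 2.5 h, 27.5 CPM at 4 h and 20.3 CPM at 6 h, so that its 3 late libraries lay above the 2 early ones, as those of 14.8% of the 28162 genes tested did. Traf4 measured 6.83 CPM at 0 h, 8.25 CPM at 1 h, 8.89 CPM at 2.5 h, 12.9 CPM at 4 h and 10.1 CPM at 6 h. Its late libraries of this dose lay above the early ones too. At 2.5 h, the 1 library of 0.2 Gy held 8.89 CPM of Traf4, within the range of the 0 and 1 h libraries of 0.5 Gy, and the 1 library of 0.5 Gy held 22.5 CPM. Traf7 measured 42.96 and 36.4 CPM at 0 and 1 h and 56.7, 55.3 and 46.0 CPM at 2.5, 4 and 6 h, again with the late libraries above the early ones. At 4 and 6 h against 0 and 1 h of this dose, Traf2, Traf3, Traf4 and Traf7 had both late libraries above both early ones, where 21.8% of all genes did, and Traf1 and Traf5 had both below, where 25.2% of all genes did, so with 2 libraries a side these separations are common. Traf2 measured 21.3 and 22.02 CPM late and 19.8 and 15.4 CPM early. Traf1 measured 8.44 and 7.10 CPM late and 9.45 and 8.91 CPM early, with 9.89 CPM at 2.5 h above all of them. Traf5 measured 11.5 and 9.74 CPM late and 13.8 and 12.7 CPM early, with 12.9 CPM at 2.5 h.

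In a model of the 11 libraries of 0, 1, 4 and 6 h of both doses, the change at 4 and 6 h after 0.2 Gy (2 libraries against 2) was not called for any of the 7 genes, where 0.0462% of 28162 genes were called. The log2 fold change was 1.36 ± 0.39 (SE) for Traf3 (edgeR adjusted p = 0.520) and 0.58 ± 0.31 (SE) for Traf4 (edgeR adjusted p = 0.720). The other 5 members lay between -0.35 (Traf5) and 0.32 (Traf7). In the same model after 0.5 Gy, where 0.128% of genes were called, Traf4 was called again with a log2 fold change of 1.44 ± 0.24 (SE, edgeR adjusted p = 0.0401), and Traf3 was not, at 1.32 ± 0.29 (SE, edgeR adjusted p = 0.182). Leaving out any 1 of the 11 libraries ended the call of Traf4 there (edgeR adjusted p from 0.0579 without replicate 2 of 1 h to 0.247 without the 6 h library of 0.5 Gy), at log2 fold changes between 1.34 and 1.57.

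Averaged over both doses, Traf3 had a log2 fold change of 1.34 ± 0.25 (SE, edgeR adjusted p = 0.0636), Traf4 of 1.01 ± 0.20 (SE, edgeR adjusted p = 0.0799) and Traf7 of 0.37 ± 0.13 (SE, edgeR adjusted p = 0.551). None was called, where 0.163% of genes were called. Traf3 and Traf4 had the 5 libraries of 4 and 6 h above all 6 libraries of 0 and 1 h, which 0.629% of the 28162 genes did, and Traf7 had 4 of 5 above. The change of Traf4 was smaller after 0.2 Gy than after 0.5 Gy by 0.86 ± 0.39 (SE) on the log2 scale, with an unadjusted p of 0.0476 and an edgeR adjusted p of 0.609, so it was not called, where 0.032% of genes were called. The change of Traf3 differed between the doses by 0.04 ± 0.49 (SE, edgeR adjusted p = 0.988).

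**Figure D2:**
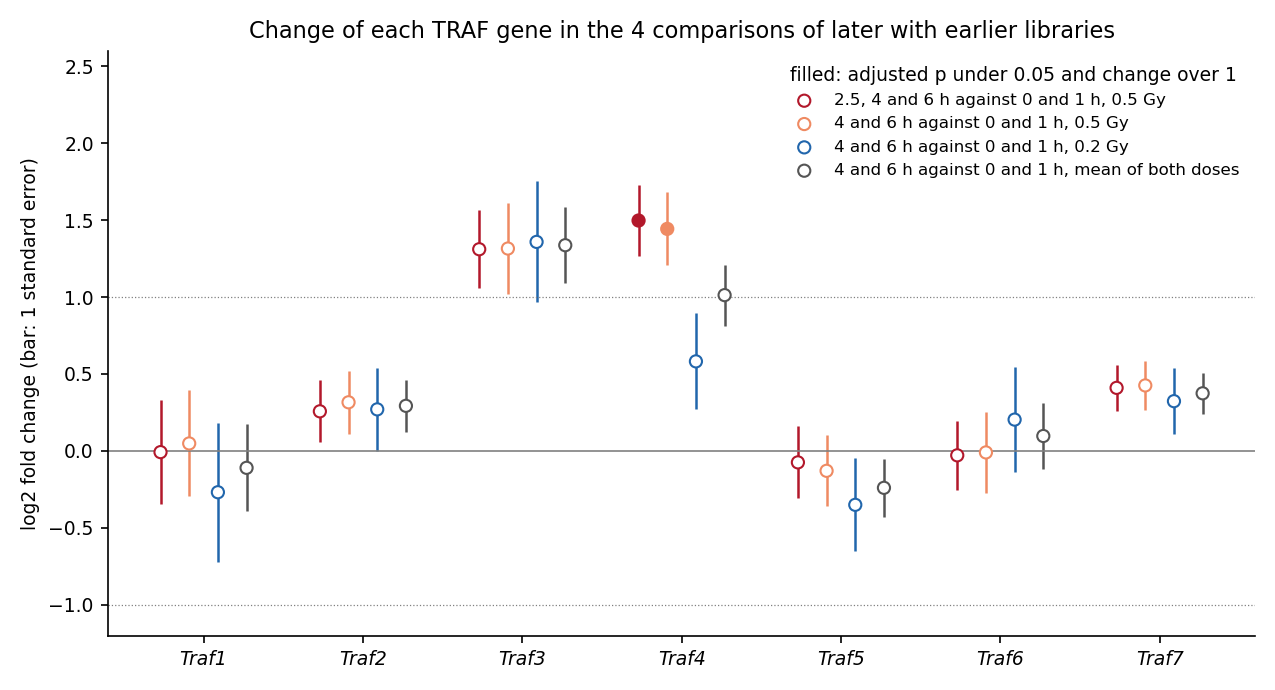
Log2 fold change of each TRAF gene (y axis, points, with bars of 1 standard error) in the 4 comparisons of later with earlier libraries (colours), with filled points for calls and dotted lines at a change of 1. Traf3 lies between 1.31 and 1.36 in all 4, Traf4 is at 1.497 in the first after 0.5 Gy and at 0.58 after 0.2 Gy, and the other 5 genes stay within 0.43 of 0.

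**Figure D3:**
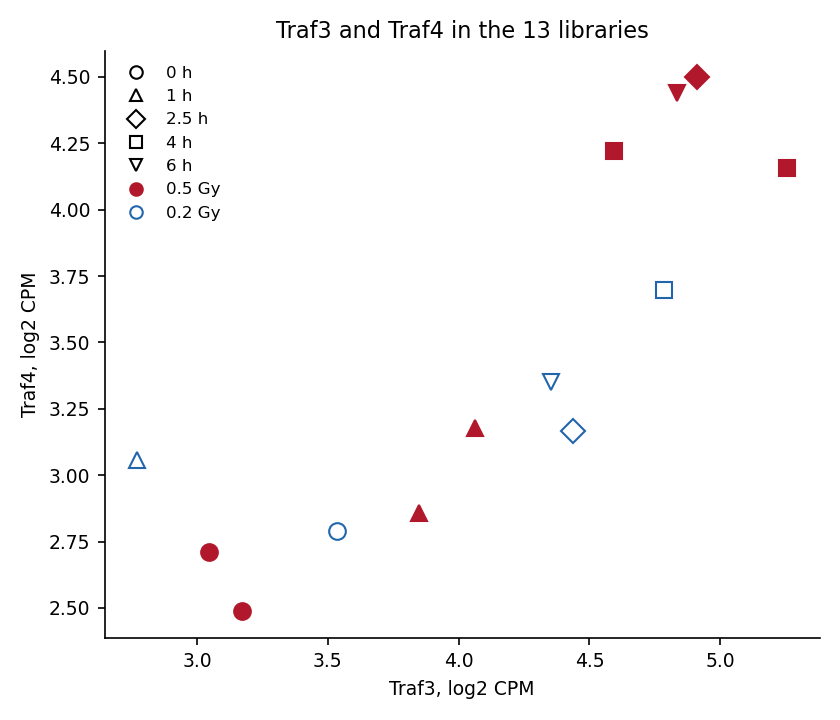
Level of Traf4 (y axis) against that of Traf3 (x axis), both as log2 CPM, in the 13 libraries, with the symbol giving the time and the colour the dose. The 4 late libraries of 0.5 Gy sit apart at the top right, and the late libraries of 0.2 Gy, at 20.3 to 27.5 CPM of Traf3, lie below them in Traf4.

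Over the 13 libraries, Pearson's r of the log2 CPM was 0.927 between Traf3 and Traf7, 0.839 between Traf3 and Traf4 and 0.773 between Traf4 and Traf7. These libraries share doses, times and generations, so the r describes a shared pattern and carries no test. Among 19065 protein-coding genes, those most like Traf4 over the 13 libraries were Cdkn1a (r = 0.953), which codes for the cell cycle inhibitor p21, Trp53inp1 (r = 0.945), a p53-inducible gene, Lysmd1 (r = 0.933), Pard6g (r = 0.928), a cell polarity gene, and 9930012K11Rik (r = 0.928). The genes most like Traf3, looked up after its values were seen, were Phlda3 (r = 0.943), an inhibitor of AKT, Sesn2 (r = 0.937), a sestrin, Sfn (r = 0.930), which codes for 14-3-3 sigma, Traf7 and Dhx35 (r = 0.926). The highest r of the other members was 0.937 (Traf2), 0.936 (Traf7), 0.884 (Traf5), 0.857 (Traf1) and 0.845 (Traf6). An r over 0.930 was thus not particular to Traf3 and Traf4.

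The reads of each gene were spread over several transcripts, and the split is an estimate made from reads of 30 bases. Traf6 was the simplest, with 90.2% to 97.9% of its reads on the coding transcript Traf6-201. Traf4 had 55.5% to 85.6% on its single coding transcript Traf4-201 and most of the rest on Traf4-203, a transcript annotated with a retained intron. Traf2 had on average 59.1% on Traf2-202 and 21.4% on Traf2-201, both coding, and 19.4% on the retained-intron transcript Traf2-203. Traf1 had 49.8% on the coding Traf1-201, 14.6% on the coding Traf1-207 and 11.9% on the retained-intron Traf1-206, and Traf7 had 51.5% on Traf7-202 and 29.2% on Traf7-201, both coding. The 3 long coding transcripts of Traf3 took between 0% and 94.5% of its reads depending on the library, so their split cannot be read.

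In Traf5, whose protein like TRAF2 serves TNF-family receptors, the retained-intron transcript Traf5-203 held 62.2% of the reads on average. The coding Traf5-202 held 19.8% and the coding Traf5-201 10.8%. The share of Traf5 reads on coding transcripts was 24.4% and 12.99% (0 h) and 28.9% and 24.8% (1 h) in the early libraries of 0.5 Gy, and 55.5% (2.5 h), 30.7% and 52.6% (4 h) and 35.7% (6 h) in the late ones. The late shares lay above the early ones, as in 1.59% of the 9010 genes with at least 10 reads on average of either kind. After 0.2 Gy they overlapped, at 39.3% and 22.3% early and 34.4%, 41.0% and 18.2% late. Summed over coding transcripts only, Traf5 had a log2 fold change of 0.81 ± 0.40 (SE) in the comparison of late with early libraries after 0.5 Gy, where all its transcripts gave -0.07, and it was not called (edgeR adjusted p = 0.571).

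One minor transcript of Traf3 stood out and was picked after its values were seen. Traf3-205 (ENSMUST00000143395, annotated as a retained-intron transcript of 1720 bases on the plus strand of chromosome 12) starts inside an intron of the coding transcripts. Its first exon, chr12:111248483-111248646 in GRCm38, opens 83 bases before a coding exon that begins at 111248566, and the later exons overlap coding transcripts throughout. Of its 1691 stretches of 30 bases, 81 (4.79%) occur in no other transcript of the files. The 83 bases of its own are printed in lower case, followed in capitals by the first 30 bases of the exon it shares (GENCODE vM21, chr12:111248483-111248595).
Traf3-205: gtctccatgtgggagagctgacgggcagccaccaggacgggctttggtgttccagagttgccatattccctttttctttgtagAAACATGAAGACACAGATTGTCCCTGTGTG

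Traf3-205 was given 0 reads in the 4 libraries of 0 and 1 h after 0.5 Gy, 47.7 reads at 2.5 h, 31 and 154.4 reads at 4 h and 62.2 reads at 6 h. These were 6.03%, 5.01%, 15.6% and 8.27% of the Traf3 reads of the late libraries. After 0.2 Gy it was given 9.3, 0, 25.7, 133.6 and 93.3 reads in order of time, or 2.32%, 0%, 4.39%, 18.01% and 18.3% of the Traf3 reads. Its share was thus higher in each late library than in each early one after 0.5 Gy, which 2.29% of 54590 transcripts with at least 10 reads on average shared, and at 4 and 6 h than at 0 and 1 h over both doses, which 0.218% shared. Among the 31 transcripts of the TRAF genes in this background, 2 had the separation after 0.5 Gy and 1 that over both doses. Traf3-205 reached the mean of 10 reads through its late libraries alone, so these shares do not measure how rare its separation is. The reads of Traf3 on its other transcripts also separated, from 124 to 439 early and from 587.5 to 833.7 late after 0.5 Gy, so the separation of Traf3 did not rest on Traf3-205 alone. With Traf3-205 left out, the log2 fold change of Traf3 after 0.5 Gy was 1.17 (edgeR adjusted p = 0.142) where it was 1.31 with it. Whether reads from the other Traf3 transcripts were assigned to Traf3-205 was not tested.

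**Figure D4:**
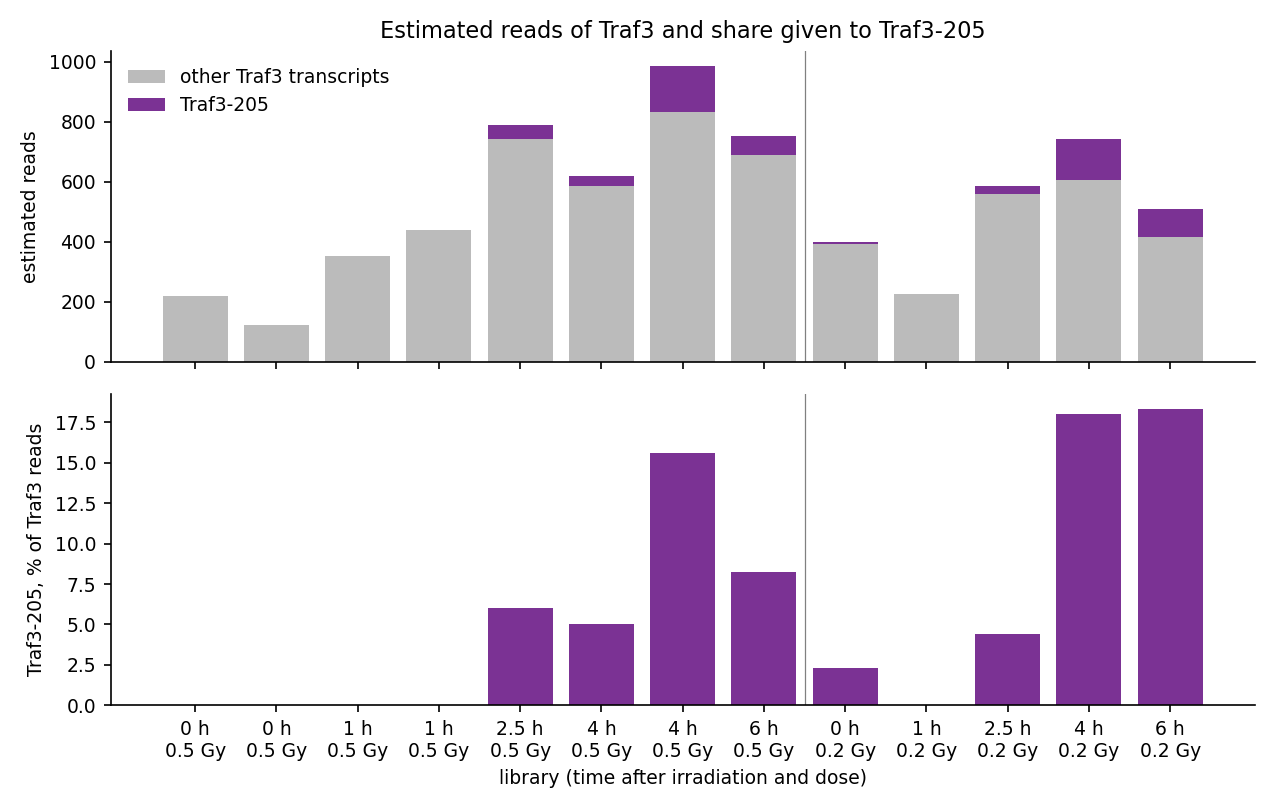
Estimated reads of Traf3 per library (upper panel, y axis, Traf3-205 in purple on the other transcripts in grey) and the share of them given to Traf3-205 (lower panel, y axis, percent), with the libraries along the x axis by dose and time. Traf3-205 is at 0 in the 4 libraries of 0 and 1 h after 0.5 Gy and at 1 h after 0.2 Gy, and it reaches 18.01% and 18.3% at 4 and 6 h after 0.2 Gy.

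The proteins around the TRAF adaptors were covered by 7 lists of genes: TNF-family receptors, their ligands, TRAF partners and regulators, the noncanonical and the canonical NF-kappaB routes, the adaptors of Toll-like and interleukin receptors, and the JNK arm. In the comparison of late with early libraries after 0.5 Gy, 1 of the 20 receptors tested rose and no gene of the other 6 lists was called. The receptor was Eda2r, which binds the ectodysplasin EDA-A2. It averaged 4.43 ± 2.08 CPM (SD, n = 4) early and 41.7 ± 12.1 CPM (SD, n = 4) late, and its log2 fold change was 3.21 ± 0.35 (SE, edgeR adjusted p = 0.00362). After 0.2 Gy it measured 7.78, 3.99, 7.78, 24.7 and 19.5 CPM in order of time, so that its level at 2.5 h was that of 0 h. It was called in the mean of both doses too, at a log2 fold change of 2.63 ± 0.30 (SE, edgeR adjusted p = 0.00306).

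The receptors had a median log2 fold change of 0.53, with 15 of 20 above 0, where the median of all genes tested was -0.02. Tnfrsf13b, the receptor TACI of lymphocytes, had 2.25 ± 0.58 (SE, edgeR adjusted p = 0.267) at no more than 77 reads in any library. In the early libraries of 0.5 Gy it held at most 9 reads (0.202 to 0.595 CPM), so this change is measured from a level near 0. At 4 and 6 h after 0.2 Gy it had -1.32 ± 0.74 (SE), with 2.21 CPM at 0 h of that dose, a level within the range of the late libraries of 0.5 Gy (0.505 to 2.35 CPM). After 0.2 Gy, at 4 and 6 h, the median over 21 receptors was -0.19, with 10 above 0. The 7 ligands tested of 18 had a median of 0.19 after 0.5 Gy, with Tnfsf12 (TWEAK) at 0.52 and Tnfsf13 (APRIL) at -0.49.

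Of the noncanonical NF-kappaB route, whose kinase NIK is the target of TRAF3, 2 of 4 genes lay above 0 after 0.5 Gy. Map3k14, the gene of NIK, was at 1.94 and 2.25 CPM at 0 h, at 4.89 and 5.604 CPM at 1 h and at 5.01 to 9.38 CPM late. Its log2 fold change was 0.80 ± 0.41 (SE, edgeR adjusted p = 0.600). In the mean of both doses it was 0.95 ± 0.36 (SE), not called. Nfkb2, whose product NIK signalling processes, had 0.40 ± 0.31 (SE) after 0.5 Gy. The canonical route had a median of 0.12 over 14 genes. Rela, its main transcription factor, had 0.47 ± 0.20 (SE) and Tab3, an adaptor of the kinase TAK1 below TRAF6, had -0.69 ± 0.21 (SE), and neither was called.

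The TRAF partners and regulators had a median of 0.10 over 20 genes, with the deubiquitinase gene Usp25 at -0.68 ± 0.20 (SE) and the ubiquitin ligase gene Siah2 at -0.57 ± 0.48 (SE). The adaptors of Toll-like and interleukin receptors had a median of 0.20 over 10 genes, with the kinase gene Irak2 at 0.70 ± 0.41 (SE) and Irak3, an inhibitory member of that kinase family, at 0.45 ± 0.72 (SE). The JNK arm had a median of 0.0049 over 12 genes, with the kinase genes Map3k1 at -0.57 ± 0.25 (SE) and Map3k11 at 0.36 ± 0.36 (SE). None of these 6 genes was called, and the edgeR adjusted p of the 6 lay between 0.365 and 0.894. After 0.2 Gy, at 4 and 6 h, the JNK arm had a median of 0.35 with 9 of 12 genes above 0. Map3k1 at 0.94 ± 0.44 (SE), Map3k11 at -0.26 ± 0.49 (SE), Usp25 at 0.27 ± 0.29 (SE), Siah2 at 0.25 ± 0.65 (SE) and Tab3 at 0.27 ± 0.28 (SE) had the opposite sign to that after 0.5 Gy. Map3k14 at 1.01 ± 0.58 (SE), Nfkb2 at 0.47 ± 0.42 (SE), Rela at 0.32 ± 0.29 (SE), Irak2 at 0.12 ± 0.53 (SE) and Irak3 at 0.11 ± 0.89 (SE) kept theirs. None of these genes was called. Map3k1 measured 58.2, 79.5, 105, 199 and 70.8 CPM in order of time after 0.2 Gy, so its 6 h library lay below that of 1 h.

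**Figure D5:**
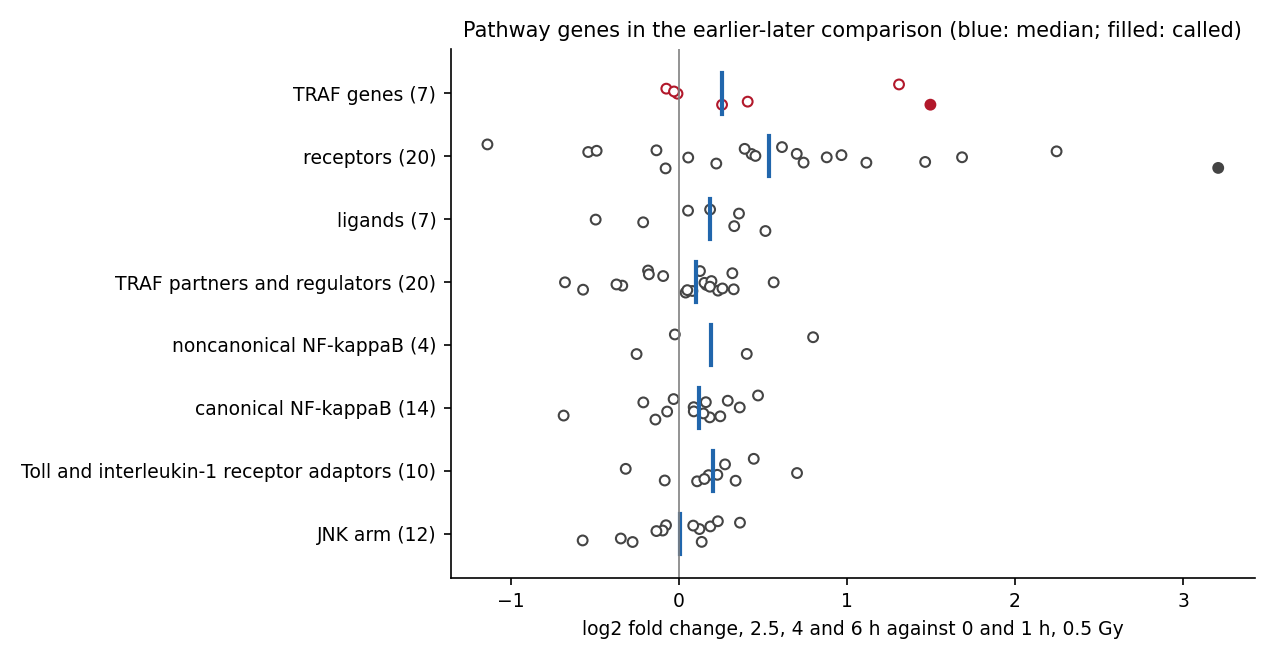
Log2 fold change of 2.5, 4 and 6 h against 0 and 1 h after 0.5 Gy (x axis) for the TRAF genes and for each list (y axis, number of genes tested in brackets), with 1 point per gene, filled points for calls and a blue bar at each median. Traf4 and the receptor Eda2r are the 2 filled points.

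The genes lie apart in the genome (GENCODE vM21, GRCm38). Traf3 (ENSMUSG00000021277) is at chr12:111166370-111267153 on the plus strand, Traf4 (ENSMUSG00000017386) at chr11:78158499-78165589 on the minus strand and Traf7 (ENSMUSG00000052752) at chr17:24508562-24527938 on the minus strand. Traf1 (ENSMUSG00000026875), at chr2:34941750-34961772, and Traf2 (ENSMUSG00000026942), at chr2:25517982-25546940, are both on the minus strand, and Traf6 (ENSMUSG00000027164) is on the plus strand at chr2:101678429-101701669. Traf5 (ENSMUSG00000026637) is at chr1:191997205-192092559 on the minus strand. Stretches of 30 bases shared with transcripts of other genes were 10.6% of those of Traf5, the largest part with the antisense gene Gm26879, 4.74% for Traf7, most with its overlapping neighbour Rab26, 3.72% for Traf2, 2.26% for Traf4, most with Gm6903, and 0.28% or fewer for Traf1, Traf3 and Traf6. The levels of Traf5 are therefore less certain than those of Traf3, which shared 0% of its stretches.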

How the data were processed

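RNA of isolated CD-1 mouse oocytes was reverse-transcribed with the SMARTER kit and sequenced as reads of 30 bases. The authors quantified 13 libraries with Salmon against mouse transcripts of Ensembl (GRCm38 per the labels). The deposited values are expected counts (estimated reads) and TPM per transcript, which were summed here per gene with GENCODE vM21. 402 of 130740 transcripts, with at most 0.495% of the reads of a library, had no gene. Expected counts were rounded and held 15709549 to 30430104 reads per library. CPM values were scaled with TMM over the 13 libraries, with a prior count of 2 on the log scale. Comparisons used edgeR 4.0.16 (filterByExpr, TMM, quasi-likelihood test) in R 4.3.3, and alternatives used limma 3.58.1 and DESeq2 1.42.0. Models were those of the 8 libraries of 0.5 Gy by time, the same 8 as early or late, and 11 libraries by dose and early or late. In simulated counts for the 8 libraries as early or late, 82 of 100 genes changed by 1.5 on the log2 scale were called among 21872 genes, with 9 false calls. Another 100 genes in the same counts were changed by 3, and 99 of them were called. So many changed genes make the adjusted p easier to pass than in the real comparison, which called 29 genes. False calls were counted over both sets together, and the counts of 100 that follow are of genes changed by 1.5. The changed genes were drawn from those with at least 100 reads on average. The simulated counts held no difference between times or generations within a side, unlike the real libraries. In the same way 10, 29 and 15 of 100 were called at 2.5, 4 and 6 h against 0 h (22579 genes, 3 to 12 false calls) and 47 of 100 at 4 and 6 h after 0.2 Gy (23791 genes). The last of these comparisons had 7 false calls. A log2 change was named for the 7 members, for each pathway gene called and for the 2 largest changes of each list, and the 5 most alike genes for a called member. The members and lists were chosen with earlier results of these data known. The authors' tables of pooled normalised counts and of their own DESeq2 comparisons (version 1.24.0 per the labels) were not used. Intervals and errors cover the spread between libraries only.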

Additional observations from a re-analysis of the deposited data

How the results depend on the processing

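The changes of Traf3 and Traf4 after 0.5 Gy, after 0.2 Gy and in the mean of both doses kept their direction in each alternative and with each library left out, and whether they were called depended on the processing. Comparing 2.5, 4 and 6 h with 0 and 1 h after 0.5 Gy, Traf4 was called in 7 of 10 alternatives (log2 fold change 1.30 to 1.58) and Traf3 in 2 of 11, both DESeq2. The number of TRAF genes called was 2 by DESeq2, with or without its prior, at 2.5, 4 and 6 h against 0 h, in the late against early comparison and at 4 and 6 h after 0.5 Gy. In the mean of both doses it was 1 with the prior (Traf3) and 2 without. It was also 1 there, again Traf3, with no filter, with at least 10 reads in every library, by limma voom and with 13 libraries. In that mean Traf3 was thus called in 6 of 12 alternatives and Traf4 in 1 of 11. With no filter the number of TRAF genes called was 1 (Traf3) at 4 h against 0 h. It was 0 in both comparisons after 0.5 Gy with protein-coding transcripts only, and 0 to 1 and 0 with 1 library left out. At 1 h against 0 h, after 0.2 Gy and in the difference between doses, no member was called under any alternative.

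The counts over all genes moved more. At 1, 2.5, 4 and 6 h against 0 h, where edgeR called 0 genes, 30, 56, 80 and 78 were called with no filter, 22, 87, 123 and 146 by DESeq2 with its prior and 35, 107, 135 and 141 without it, and 4, 3 and 7 at 2.5, 4 and 6 h with at least 10 reads in every library. With 1 library left out these counts were 0 to 4, 0 to 7, 0 to 10 and 0 to 6. Late against early after 0.5 Gy, 29 genes became 58 with no filter, 123 and 203 by DESeq2 with and without prior and 17 by limma voom, and 10 to 37 with 1 library left out. At 4 and 6 h the 36 genes of 0.5 Gy became 201 and 236 by DESeq2 (11 to 49 with 1 library left out). The 13 genes of 0.2 Gy became 32 with no filter, 1 with at least 10 reads, 130 and 136 by DESeq2, 0 with protein-coding transcripts only, 28 with 13 libraries and 2 with the 4 libraries of 0.2 Gy alone (1 to 18). The 46 of the mean became 99 and 172 by DESeq2 and 23 with protein-coding transcripts only (14 to 44). The 9 of the difference between doses became 22, 115 and 114 with no filter and by DESeq2, 0 by limma voom and with protein-coding transcripts only, and 20 with 13 libraries (0 to 13).

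What a generation is (a litter, a day or a run) is not given in the sources used here, and whether it pairs libraries is not settled: the deviations of same-numbered libraries from their group means correlated at 0.163 (0 and 1 h), 0.0969 (0 and 4 h) and 0.138 (1 and 4 h) over 22588 genes, so not each was above 0.1. The library totals in the study's sequencing table are exchanged between the generations at 1 and 4 h. With the generation as replicate block, 1, 6 and 7 genes were called at 2.5, 4 and 6 h and 18 late against early, and 0 TRAF genes were called in either comparison after 0.5 Gy (adjusted p of Traf4 0.0634 late against early). With the replicate block and exchanged generations, 7 genes were called at 0.2 Gy, 1 in the difference between doses and 0 TRAF genes after 0.5 Gy (adjusted p of Traf4 0.0729 late against early).

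The changes that reversed were of about 0.20 or less on the log2 scale in the main processing. Some reversed values lay further from 0, with Traf5 at 0.81. The difference between doses of Traf3, 0.04, was -0.00042 with 13 libraries, -0.053 by DESeq2 with prior, -0.067 without the retained-intron transcript, -0.029 with at least 10 reads, -0.11 with protein-coding transcripts only, -0.033 with upper quartile scaling and -0.29 to 0.53 with 1 library left out. Late against early after 0.5 Gy, Traf1 was 0.0087 with at least 10 reads, 0.030 with no filter, 0.13 with protein-coding transcripts only and -0.30 to 0.23 with 1 library left out. Traf6 was 0.019 with no filter, 0.00096 with protein-coding transcripts only and -0.16 to 0.12 with 1 library left out, and Traf5 was 0.81 with protein-coding transcripts only and -0.14 to 0.047 with 1 library left out. Traf6 after 0.2 Gy was -0.20 to 0.51 with 1 library left out. The cause of these shifts was not tested. Leaving out the retained-intron transcript of Traf3 was chosen after seeing the data. Median levels and counts of members without overlap kept their values within the spread between libraries under CPM without scaling and under DESeq2 size factors.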
